A study of Mus musculus with 6 samples.

Results

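Mural cells were represented by 264 of 40139 nuclei isolated from the pons and medulla, the lower brainstem, where breathing and blood pressure are regulated, of mice. A nucleus counted as mural when the unique molecular identifiers (UMIs, each standing for 1 captured RNA molecule) of Pdgfrb, Rgs5, Abcc9, Kcnj8, Notch3, Atp13a5 and Myh11 added up to at least 3, with at least 2 of these 7 genes detected. It also had to hold at most 2 UMIs of the endothelial gene Flt1, at most 1 over the fibroblast genes Slc6a13, Ranbp3l and Col1a2, at most 1 over the oligodendrocyte genes Mog and Mag, and fewer than 8 of the neuronal RNA Meg3. Only nuclei in which 500 or more genes were detected, and mitochondrial UMIs did not exceed 5%, entered the counts. The levels of these genes in the mural nuclei were therefore fixed by the choice of nuclei and are given below as a description.

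All mice were wild-type C57BL6/J males. The exposed group went through chronic intermittent hypoxia (CIH) for 21 days, between postnatal days 22 and 43, and the control group (Normoxia) was kept in room air over the same days. A hypoxic cycle consisted of 60 seconds of nitrogen, which took the chamber down to 4.5 to 5% oxygen, followed by up to 5 minutes of air until 21% was reached, and the mice had 80 cycles in 8 hours of each day. Each group had 3 libraries made from sorted nuclei of frozen tissue with 10x Genomics 3' chemistry. The labels do not give the number of mice behind a library, so the p-values below speak of the spread between libraries, which may be technical.

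Mural cells lie on the outer face of the brain's blood vessels. Smooth muscle cells wrap arteries and arterioles and set their width through a contractile apparatus of actin and myosin. Pericytes sit on capillaries inside the vascular basement membrane, are recruited by platelet-derived growth factor that endothelial cells release, and help to maintain the blood-brain barrier.

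The libraries were not alike. CIH 3 had a median mitochondrial share of 0.366% per kept nucleus, against 0.0624 to 0.0955% in the other 5 libraries. CIH 1 and Normoxia 2 shared 1563 cell barcodes, which were 33.9% of the barcodes of CIH 1 and 21.1% of those of Normoxia 2. Other pairs of libraries shared 2 to 31 kept barcodes. At the shared barcodes the median depth was 7872 UMIs in CIH 1 and 984 UMIs in Normoxia 2, the correlation of log UMIs was 0.969, and the median correlation between the 2 profiles of a barcode was 0.548, against 0.310 for profiles of different barcodes. Of the kept nuclei of Normoxia 2, 1163 carried such a barcode, and 0 of them were mural. The mural sums were therefore the same with and without them, and the shares are given both ways.

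Mural nuclei were few in all libraries but one. There were 17, 17 and 178 in CIH 1 to 3 and 18, 14 and 20 in Normoxia 1 to 3, from 4350, 4447 and 10643 kept nuclei in CIH and 4698, 6615 and 9386 in Normoxia. Their summed UMIs were 33884, 44295 and 310437 in CIH and 51744, 35852 and 26403 in Normoxia. CIH 3 thus held most of the mural nuclei of the series, and every other library rested on 20 nuclei or fewer. No barcode was mural in more than 1 library, but 1 mural barcode of CIH 2 was also among the kept barcodes of Normoxia 1, and 2 of CIH 3 among those of Normoxia 2.

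The label held for most of these nuclei but not for all. Forming a separate kind, 43 of the 264 carried at least 5 UMIs over the astrocyte markers Slc1a2, Slc1a3, Aqp4, Gja1, Gfap and Slc4a4, a limit set after their values were seen. They numbered 3, 5 and 23 in CIH and 7, 3 and 2 in Normoxia. Their median depth was 4086 UMIs with a median of 4 mural-gene UMIs, and 0 of 43 held a UMI of Myh11 or of the contractile genes Acta2, Tagln, Myl9, Cnn1 and Mylk. The mural genes they did hold were mainly Notch3 (36 of 43), Atp13a5 (33 of 43) and Pdgfrb (25 of 43), while the potassium channel genes Abcc9 and Kcnj8 were found in 2 and 1.

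The other 221 nuclei, 14, 12 and 155 in CIH and 11, 11 and 18 in Normoxia, had a median depth of 1308 UMIs and a median of 13 mural-gene UMIs. Ebf1, a transcription factor of mural and endothelial cells that was not part of the definition, was detected in 203 of the 221 (91.9%) and in 5 of the 43 (11.6%). Because the 43 were deeper, they supplied 39.3, 42.7 and 28.7% of the mural UMIs in CIH and 66.6, 55.7 and 20.1% in Normoxia. The summed astrocyte markers made up 2629 to 4718 of every 1000000 UMIs (counts per 1000000, CPM) in CIH with them, against 1932 to 8561 CPM in Normoxia. Without them they stood at 236 to 389 CPM in CIH, against 62.9 to 637 CPM in Normoxia, beside 9515 CPM in astrocyte nuclei. The same markers had set both the 221 (fewer than 5 UMIs) and the astrocyte nuclei (at least 20 UMIs). The low level of the 221 and this distance were therefore largely fixed in advance. Results below are given with and without these 43 nuclei, called astrocyte-marker members.

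**Figure D1:**
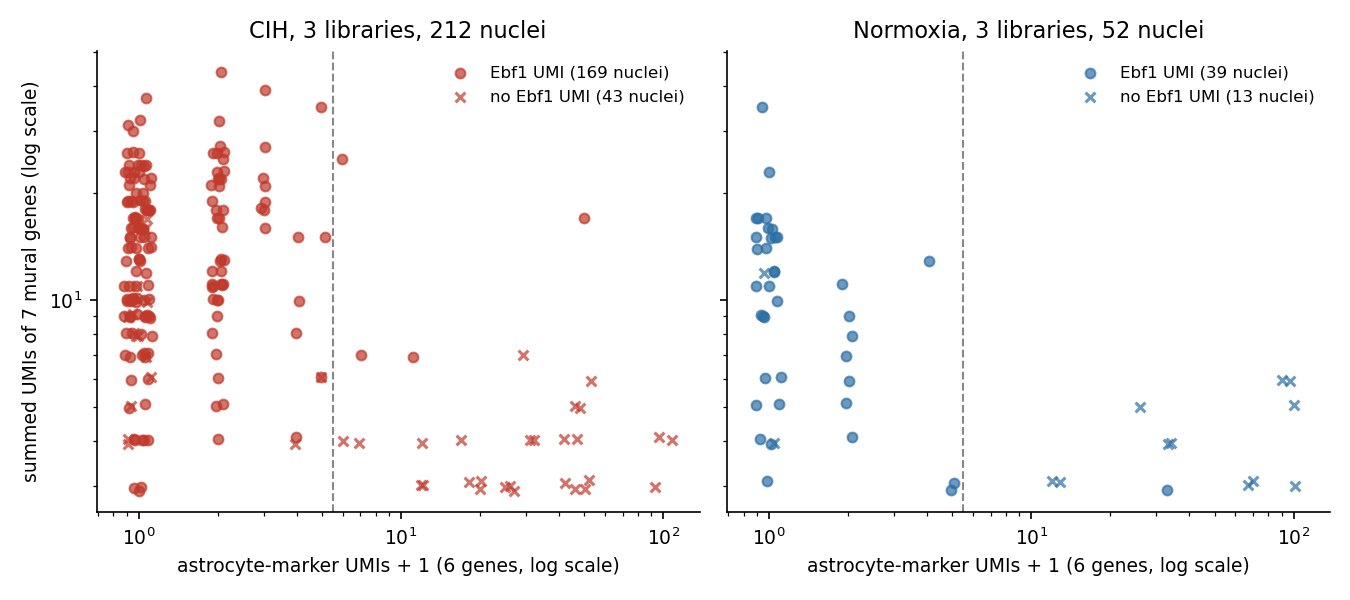
Each mural nucleus by its UMIs over the 6 astrocyte markers plus 1 (x axis, log scale, slightly jittered) and its summed UMIs of the 7 mural genes (y axis, log scale, slightly jittered), for the 212 CIH nuclei (left) and the 52 Normoxia nuclei (right). Dots hold an Ebf1 UMI and crosses do not; to the right of the dashed line lie the 43 nuclei with at least 5 astrocyte-marker UMIs, nearly all of them crosses near the lower limit of 3 mural UMIs.

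Nuclei at the limit of the definition were largely of that kind. With a mural sum of 3, just inside, there were 3, 1 and 12 nuclei in CIH and 6, 2 and 1 in Normoxia, of which 2, 1 and 10 in CIH and 4, 1 and 1 in Normoxia were astrocyte-marker members. With a sum of 2, just outside, there were 4, 8 and 39 in CIH and 6, 5 and 7 in Normoxia, and 3, 6 and 33 of these in CIH and 6, 5 and 3 in Normoxia held as many astrocyte-marker UMIs. At the other end, 151 of the 264 had 10 or more mural UMIs, and 149 of those 151 were among the 221.

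Markers of further cell types were summed in the 221 nuclei in the same way, and their part in the results was not tested. The definition itself limited some of these markers: Flt1, Slc6a13, Ranbp3l, Col1a2, Mog, Mag and Meg3. Endothelial and fibroblast nuclei were picked by markers in their lists. The distance between the classes was therefore partly fixed in advance. The summed level of 8 endothelial markers ranged over 353 to 748 CPM in CIH, against 332 to 695 CPM in Normoxia, beside a mean of 17464 CPM in endothelial nuclei. For 7 fibroblast markers the ranges were 49.7 to 340.1 CPM in CIH, against 94.8 to 289.6 CPM in Normoxia, beside 3007 CPM in fibroblast nuclei, with Lum at 0. For 6 oligodendrocyte markers they were 906 to 2043 CPM in CIH, against 1280 to 1680 CPM in Normoxia, beside means of 1536 CPM in endothelial and 991 CPM in astrocyte nuclei. For 6 neuronal markers they were 1263 to 2126 CPM in CIH, against 759 to 2201 CPM in Normoxia, beside means of 1501 CPM in endothelial and 734 CPM in astrocyte nuclei. For 4 granule neuron markers they were 0 to 945 CPM in CIH, against 0 to 521 CPM in Normoxia. Precursor, microglial and macrophage markers stayed at or under 289.6 CPM in every library, with Tmem119 and Pf4 at 0.

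Oligodendrocyte nuclei were used as a reference for free RNA in the droplets. No limit on mural genes was set for them, so doublets and their own expression also enter their shares. In each library 8 to 41 nuclei reached the mural sum and gene count with more than 1 UMI of Mog and Mag. The 7 mural genes were each detected in 17.8 to 85.6% of the 264 mural nuclei, at median depths of 1017 to 2367 UMIs, and in 0.151 to 1.37% of 9930 oligodendrocyte nuclei, at median depths of 2311 to 3450 UMIs. For the contractile genes outside the definition the same shares were 7.95% and 0.0806% for Acta2, 4.55% and 0.232% for Tagln, 17.8% and 0.201% for Myl9 and 35.6% and 0.483% for Mylk, mural nuclei first. Cnn1 was found in 1 mural nucleus. Ebf1 was detected in 78.8% of mural and 6.79% of oligodendrocyte nuclei.

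The 7 genes of the definition were each detected in all 6 libraries of the 221 nuclei. Atp13a5 gave 54, 93 and 927 UMIs in CIH and 43, 50 and 60 in Normoxia. Pdgfrb had 35, 44 and 302 in CIH and 21, 20 and 26 in Normoxia, and Notch3, the receptor whose mutation causes the small-vessel disease CADASIL, 23, 38 and 313 in CIH and 20, 17 and 33 in Normoxia. These 3 were also the ones that the astrocyte-marker members mainly held. Rgs5, a regulator of G-protein signalling typical of pericytes, had 23, 29 and 202 in CIH and 12, 12 and 19 in Normoxia. Kcnj8 had 5, 12 and 45 UMIs in CIH and 1, 13 and 5 in Normoxia, and Myh11, the smooth muscle myosin heavy chain, 4, 8 and 118 in CIH and 4, 11 and 12 in Normoxia, so that some libraries held fewer than 5 molecules of either. Abcc9 had 20, 14 and 339 in CIH and 16, 21 and 14 in Normoxia.

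Beyond the 7 genes of the definition, the summed mural nuclei held RNAs that were near 0 in the sum of all other kept nuclei. Not every mural nucleus held each of them: Acta2 was detected in 21 and Myl9 in 47 of the 264. Levels in this and the next 3 paragraphs are CPM of the summed nuclei of a class, averaged over the 6 libraries, and are a description, since the nuclei were chosen by the same RNA measurement. The 20 genes with the highest ratio of all mural nuclei to all other kept nuclei comprised 6 of the 7 genes of the definition (Notch3 was not among them) and 14 others. The highest ratio, 522, belonged to Carmn, the long noncoding RNA of smooth muscle that hosts the miR-143 and miR-145 locus, with 390 ± 200 CPM in mural nuclei and 0.748 CPM in the rest (SD over 6 libraries). Acta2, Myl9, Morrbid, Pla2r1, Lamc3 and Pear1 were also among the 14, and the lowest ratio of the 20, that of Pear1, was 80.6.

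Levels of a matrix protein gene and of transporter genes were read in the same 4 classes. Vtn, which encodes the matrix glycoprotein vitronectin, averaged 1959 ± 898 CPM in the 221 nuclei, 11.6 CPM in endothelial, 173 CPM in fibroblast and 2.96 CPM in astrocyte nuclei. Slc38a11, of the amino acid transporter family SLC38, stood at 1053 ± 255 CPM and at or under 3.30 CPM in those 3 classes. Slc6a20a, a transporter of proline and other imino acids, had 1265 ± 554 CPM in the 221 and 6.66 CPM in endothelial nuclei, but 864 CPM in fibroblasts.

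Receptors for vasoactive signals were part of the profile. Ednra, the endothelin A receptor, averaged 471 ± 80 CPM in the 221 nuclei, had no UMI in endothelial nuclei and stood at 25.6 CPM in astrocytes. Its relative Ednrb showed the opposite pattern, with 8.82 CPM in the 221, 225 CPM in astrocyte nuclei and 193 CPM in the astrocyte-marker members. Cysltr2, a receptor for cysteinyl leukotrienes, had 118 ± 97.1 CPM, with 0.493 CPM in endothelial nuclei and no UMI in fibroblast or astrocyte nuclei. S1pr3, a sphingosine-1-phosphate receptor, had 186 ± 68.3 CPM and no UMI in endothelial nuclei. Transcripts of the nitric oxide and cGMP pathway were present as well: the kinase gene Prkg1 at 4198 ± 1316 CPM against 1883 CPM in endothelial nuclei, the guanylate cyclase gene Gucy1a1 at 272 ± 62.7 CPM against 13.2 CPM, and Mrvi1, which encodes a substrate of that kinase, at 365 ± 180 CPM against 1.36 CPM. Fibroblast nuclei held more of some of these RNAs, with 133 CPM of Mrvi1 and 38.9 CPM of Ednra.

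Among regulators, the T-box factor gene Tbx2 had 244.5 ± 38.5 CPM in the 221 nuclei and 1.60 CPM in endothelial nuclei. Tbx3os1 had 716 ± 232 CPM and 9.64 CPM. It is annotated as antisense (chromosome 5, 119570130 to 119671365, minus strand), and Tbx3 on the plus strand starts at 119670669. With no strand setting stated, UMIs from a stretch that it shares with another gene cannot be told apart. Ebf1 was present in all vessel classes, with 3409 ± 1031 CPM in the 221, 2504 CPM in endothelial and 554 CPM in fibroblast nuclei. Ndufa4l2 and Cox4i2, which encode a homologue and an isoform of respiratory chain subunits, were at 236 ± 151 CPM and 100.4 ± 24.0 CPM, against 16.9 and 5.22 CPM in endothelial nuclei and at most 1.20 CPM in fibroblasts and astrocytes. Trpm3, an ion channel gene, marked the astrocyte-marker members with 9775 CPM, close to the 9248 CPM of astrocyte nuclei and far above the 151 CPM of the 221; fibroblast nuclei had 7772 CPM.

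**Figure D2:**
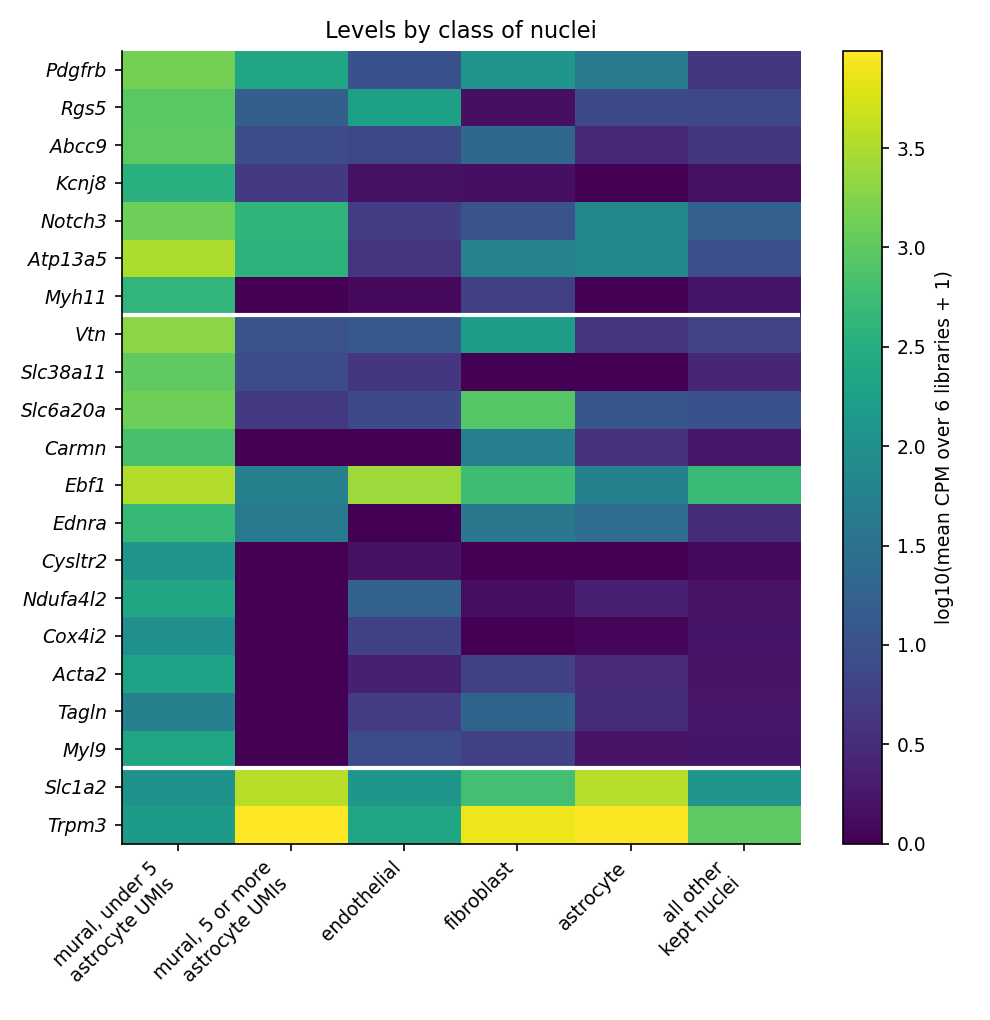
Mean level over the 6 libraries (colour, log10 of CPM + 1) of 21 genes in 6 classes of nuclei. Genes of the definition are above the first white line, other mural genes between the lines, and Slc1a2 and Trpm3 below. The astrocyte-marker members (second column) resemble the astrocyte column in Slc1a2 and Trpm3 and are dark for Vtn, Carmn, Acta2 and Myl9, unlike the other mural nuclei (first column). Slc1a2 is among the markers that chose both classes, so its likeness was fixed in advance. Trpm3 is also high in fibroblast nuclei.

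The 221 nuclei were further described by the contractile genes outside the definition. A UMI of Acta2 (smooth muscle actin), Tagln (transgelin), Myl9 and Mylk (myosin light chain and its kinase) or Cnn1 (calponin) was present in 122 of them and absent from 99. This split is a range and not a pair of cell types, because the nuclei with such a UMI were somewhat deeper (median 1424.5 UMIs against 1194 UMIs) and most of them, 104 of 122, also held Atp13a5. A contractile UMI without Atp13a5 was seen in 18, Atp13a5 without a contractile UMI in 89, and neither in 10.

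Several genes followed the split. In pooled nuclei Myh11 had 725 CPM with a contractile UMI and 139 CPM without one, and it was higher with one in 6 of 6 libraries. Kcnab1, a beta subunit of voltage-gated potassium channels, had 652 and 53.9 CPM (5 of 6 libraries). Ctnna3, the adhesion protein alpha-T-catenin, had 955 and 493 CPM (6 of 6), Filip1l, a filamin-interacting protein, 720 and 370 CPM (5 of 6), and Pde3a, a phosphodiesterase that degrades cyclic AMP, 1064 and 539 CPM (5 of 6). Angpt1, a ligand of the endothelial receptor Tie2, had 214 and 100.1 CPM (6 of 6).

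Genes of the pericyte list went both ways. Slc38a11 had 1341 CPM with a contractile UMI and 824 CPM without one and was higher with one in 5 of 6 libraries. Abcc9 and Kcnj8 encode the regulatory and pore-forming subunits of a potassium channel closed by ATP; Abcc9 had 1216 CPM with a contractile UMI and 1471 CPM without one and was lower with one in 5 of 6 libraries, while Kcnj8 had 256 and 246 CPM. Pdgfrb, the receptor for platelet-derived growth factor, had 1278 and 1563 CPM and was lower with a contractile UMI in 5 of 6 libraries, as was Cspg4 (NG2) at 376 and 470 CPM. Vtn, at 1461 and 1279 CPM, was higher with one in 3 libraries and lower in 3. No test was made of these differences, since the same RNA counts defined the split.

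**Figure D3:**
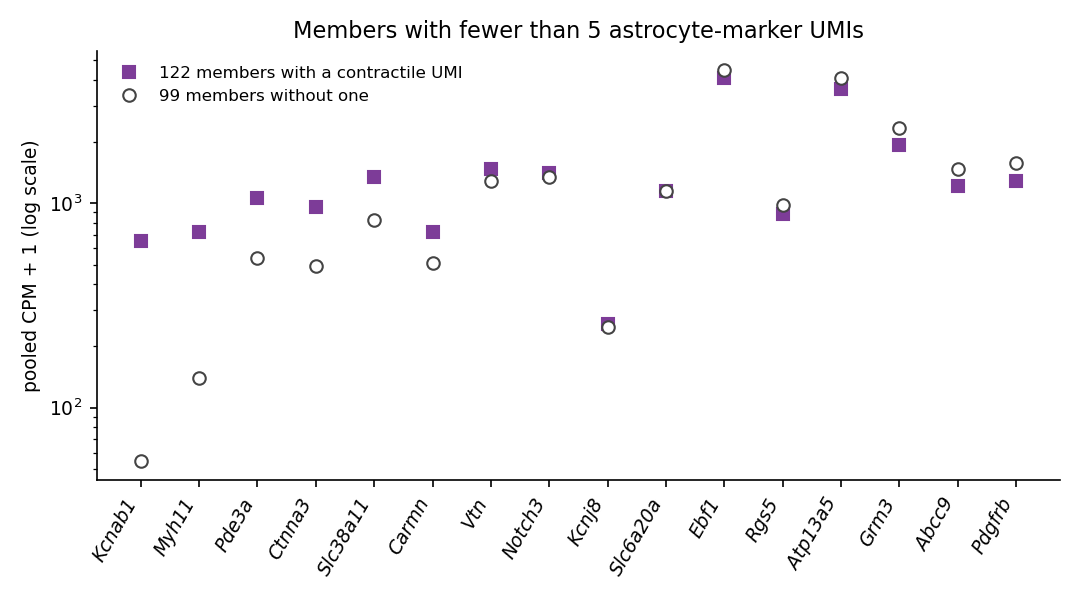
Pooled level (CPM + 1, log scale) of 16 genes in the 122 mural nuclei with a contractile UMI (filled squares) and the 99 without one (open circles), astrocyte-marker members left out, ordered by the ratio of the 2. Kcnab1 (652 and 53.9 CPM) and Myh11 (725 and 139 CPM) stand apart at the left, and Abcc9 and Pdgfrb lie slightly lower in the nuclei with a contractile UMI.

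The first comparison between groups asked whether mural nuclei took a different share of the kept nuclei after CIH. The share was 0.391% (95% Wilson interval 0.244 to 0.625%), 0.382% (0.239 to 0.611%) and 1.67% (1.45 to 1.93%) in CIH 1 to 3, against 0.383% (0.242 to 0.605%), 0.212% (0.126 to 0.355%) and 0.213% (0.138 to 0.329%) in Normoxia 1 to 3. Only CIH 3 lay above the intervals of all 3 Normoxia libraries, while CIH 1 and CIH 2 lay inside that of Normoxia 1. The mean was 0.815 ± 0.742% in CIH and 0.269 ± 0.0986% in Normoxia (SD, n = 3 each), a difference of 0.546 percentage points with p = 0.2 in an exact two-sided permutation test, whose smallest possible p is 0.1.

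Without the astrocyte-marker members the shares were 0.322, 0.270 and 1.46% in CIH and 0.234, 0.166 and 0.192% in Normoxia, a difference of 0.485 points with no overlap between the groups and the smallest p that the exact permutation test can give, 0.1. One library decided the size of the difference: without CIH 3 it was 0.117 points with all members (exact permutation p = 0.3) and 0.0984 points without the astrocyte-marker members. With the shared barcodes left out of Normoxia 2, its share was 0.257% and the difference 0.531 points (exact permutation p = 0.2). CIH 3 had the most kept nuclei, 10643, and also held the most endothelial, fibroblast and astrocyte nuclei. Fibroblast nuclei numbered 49, 43 and 148 in CIH and 29, 18 and 43 in Normoxia. Endothelial nuclei numbered 70, 57 and 475 in CIH and 36, 30 and 103 in Normoxia. Astrocyte nuclei numbered 37, 44 and 312 in CIH and 39, 56 and 61 in Normoxia. The sort and the dissection can set such shares, and CIH 3 also had the higher mitochondrial share. The part of all these in the result was not tested. Intervals cover counting error only.

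**Figure D4:**
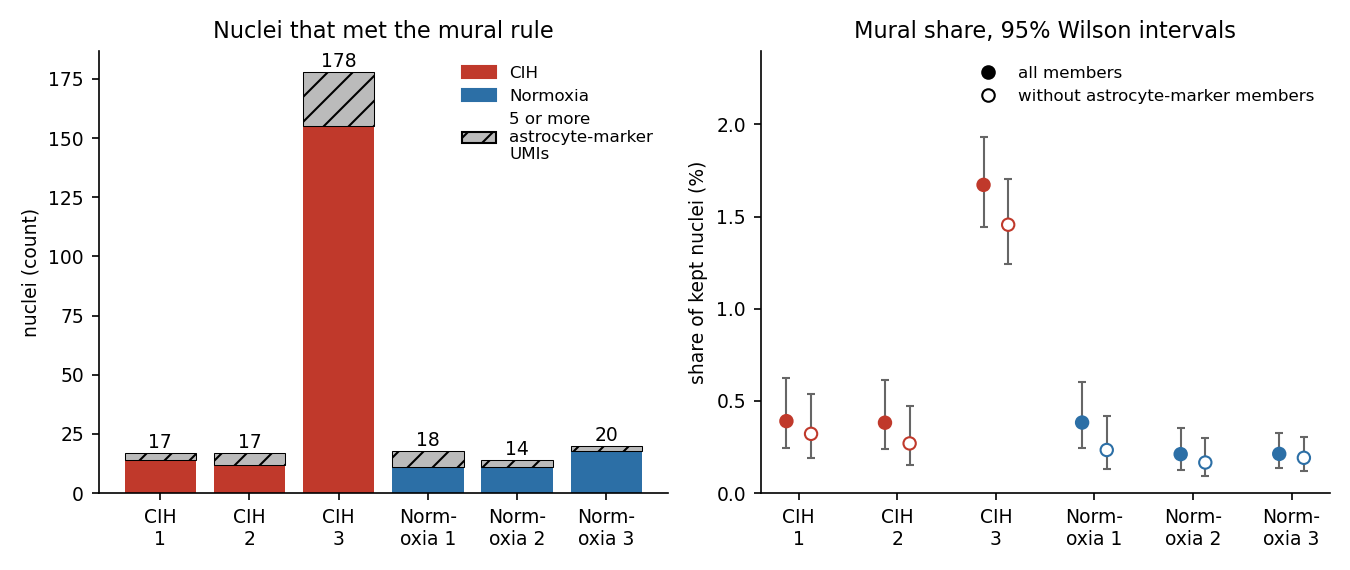
Left, number of mural nuclei per library, with astrocyte-marker members hatched. Right, mural share of kept nuclei (%) with 95% Wilson intervals, for all members (filled) and without astrocyte-marker members (open); CIH in red and Normoxia in blue. CIH 3, with 178 nuclei and 1.67%, stands apart from the other 5 libraries, which had 14 to 20 nuclei and 0.212 to 0.391%.

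The depth of a mural nucleus did not separate the groups. Median UMIs per nucleus were 1348, 1932 and 1406.5 in CIH and 2367, 1574 and 1017 in Normoxia, so that the Normoxia values enclosed those of CIH. The means were 1562 ± 322 UMIs in CIH and 1653 ± 678 UMIs in Normoxia, with an exact permutation p of 0.8. Without the astrocyte-marker members the medians were 1224.5, 1843 and 1333 UMIs in CIH and 1488, 1387 and 998 in Normoxia, and the direction turned to a difference of 176 UMIs (exact permutation p = 0.6).

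The proportion of contractile nuclei varied more between the Normoxia libraries than between the groups. A contractile UMI was found in 8 of 17, 8 of 17 and 79 of 178 mural nuclei in CIH (47.1, 47.1 and 44.4%), against 5 of 18, 9 of 14 and 13 of 20 in Normoxia (27.8, 64.3 and 65.0%). The means of 46.2 ± 1.55% in CIH and 52.4 ± 21.3% in Normoxia differed by -6.19 points (exact permutation p = 0.6). Among the 221 the shares were 57.1, 66.7 and 51.0% in CIH and 45.5, 81.8 and 72.2% in Normoxia, a difference of -8.24 points (exact permutation p = 0.5). The sign rested on Normoxia 2 and 3: the difference with all members was -0.222 points without Normoxia 2 and 0.135 points without Normoxia 3. After thinning each nucleus to 1000 UMIs, the shares were 35.7, 33.3 and 38.6% in CIH and 26.7, 50 and 45.5% in Normoxia.

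The next comparison asked which genes differed within mural nuclei. UMIs were summed per library and tested with edgeR. Of 606 genes with enough counts, 0 (0%) had an adjusted p under 0.05 by edgeR, 28 (4.62%) had an unadjusted p under 0.05, and DESeq2 called 0 as well, with 19 under an unadjusted 0.05. The CPM ranges of the groups did not overlap for 26 genes higher in CIH (4.29%) and 27 lower in CIH (4.46%).

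With the astrocyte-marker members left out, only 200 genes had enough counts. Of these, 0 (0%) were called by edgeR and 0 by DESeq2, and 8 (4%) had an unadjusted p under 0.05 in edgeR and 5 in DESeq2. Groups did not overlap for 12 genes higher in CIH (6%) and 10 lower (5%). The values that follow are therefore given as values, and none of these genes is said to differ.

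Of the genes of smallest p with all members, most of the 10 lower in CIH drew the larger part of their UMIs from the astrocyte-marker members. At least 50% of the UMIs came from these 43 nuclei for 8 of the 10 lower genes and for 0 of the 10 higher ones. The same count was not made over all 606 genes tested, so it has no background share beside it. These nuclei supplied 20.1 to 66.6% of the mural UMIs of a library, and without them only 200 genes had enough counts. Bmpr1b, a receptor for bone morphogenetic proteins, had 7, 21 and 48 UMIs in CIH and 45, 21 and 9 in Normoxia with all members, but 0, 0 and 2 in CIH and 0, 0 and 0 in Normoxia without them. Kcnn2, a calcium-activated potassium channel gene, had 9, 11 and 65 UMIs in CIH and 21, 23 and 7 in Normoxia, with 91.9% of its UMIs in the astrocyte-marker members. The same share was 80.4% for the growth factor gene Pdgfd, 76.7% for Hacd2, 71.1% for the kinase gene Camk2g, 61.0% for Myo6, 58.0% for Enah and 53.8% for Ehbp1. Their log2 fold changes, CIH over Normoxia, ran from -1.49 to -0.98 over all 10, with an edgeR adjusted p of 0.893 for each.

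The 2 lower genes that rested mainly on the 221 nuclei were Sorbs2, a cytoskeletal adaptor, and Ctnna3. Sorbs2 had 7, 5 and 93 UMIs in CIH and 22, 17 and 25 in Normoxia, or 201 ± 84.2 CPM in CIH and 630.5 ± 308 CPM in Normoxia on the scaled library size of edgeR (scaled CPM; SD, n = 3 each), and the groups did not overlap (log2 fold change -1.49, SE 0.46, edgeR adjusted p = 0.893). Without the astrocyte-marker members it had 4, 1 and 78 UMIs in CIH and 15, 5 and 25 in Normoxia, too few to be tested. Ctnna3 had 8, 17 and 169 UMIs in CIH and 47, 16 and 43 in Normoxia, with overlapping groups and a log2 fold change of -1.36 (SE 0.52).

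Of the 10 higher genes, 6 could also be tested in the 221 nuclei, and their fold changes were smaller there. Slc6a20a had 30, 56 and 235 UMIs in CIH and 20, 19 and 11 in Normoxia, or 955 ± 280 scaled CPM in CIH and 451 ± 53.6 in Normoxia, with a log2 fold change of 1.07 (SE 0.44, edgeR adjusted p = 0.893) that became 0.60 (SE 0.46) without the astrocyte-marker members. Grm3, a metabotropic glutamate receptor, had 24, 79 and 601 UMIs in CIH and 17, 20 and 22 in Normoxia, and its log2 fold change was 1.35 (SE 0.50) with and 1.02 (SE 0.44) without them. Slc12a2, the sodium-potassium-chloride cotransporter NKCC1, stood at 1.32 (SE 0.59) and 0.99 (SE 0.56), and the ubiquitin ligase gene Hecw2 at 1.28 (SE 0.49) and 0.84 (SE 0.50). Higher genes not tested there were Asic2 (an acid-sensing channel), Cped1, the nuclear receptor gene Nr2f2 and Tmem164, at log2 fold changes of 1.45, 1.70, 1.37 and 1.58. Their edgeR adjusted p was 0.893 each.

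**Figure D5:**
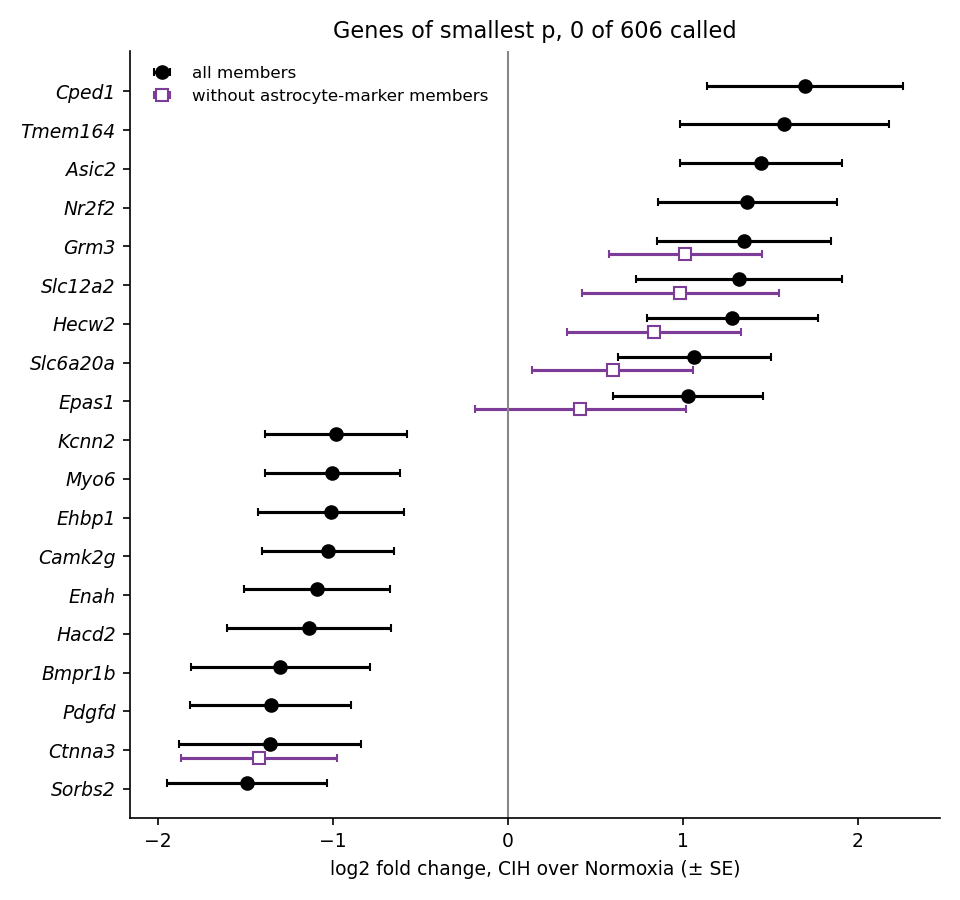
Log2 fold change, CIH over Normoxia, with its standard error for 9 of the 10 higher and the 10 lower genes of smallest p, with all members (black dots) and, where counts allowed a test, without the astrocyte-marker members (open purple squares). None of them passed the threshold (edgeR adjusted p 0.893 to 0.943); 5 of the higher genes shown and 1 of the lower genes, Ctnna3, could be tested both ways.

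In the 221 nuclei the 5 genes of smallest p with lower levels in CIH were Ctnna3, Filip1l, Kcnab1, Pde3a and Carmn. Each had a higher pooled level in nuclei with a contractile UMI than in those without one, Carmn at 725 and 508 CPM, whereas Rasal2, the next by p, had 537 and 593 CPM. Among all genes tested in the 221, 95 of 200 (47.5%) were higher with a contractile UMI. It was 53 of 96 (55.2%) among those with a fold change below 0 and 42 of 104 (40.4%) above 0. Genes higher in CIH with such a pattern included Rbfox1 (log2 fold change 1.31, SE 0.68), at 1070 and 285 CPM. Another was Kcnip4 (1.54, SE 0.81), at 798 and 331 CPM. Both had their highest level in CIH 2, and the edgeR adjusted p was 0.854 for each. Filip1l, Carmn and Rasal2, and among the higher genes Lsamp, Ano4, Rbfox1 and Kcnip4, were chosen after their values were seen. Ctnna3 (chromosome 10, 63430098 to 65003667, plus strand, mm10) had 7, 12 and 155 UMIs in CIH and 20, 10 and 43 in Normoxia, or 357, 473 and 594 scaled CPM in CIH and 1289, 640.0 and 2023 in Normoxia. All 3 CIH values lay under the 3 Normoxia values, with a log2 fold change of -1.42 (SE 0.44, unadjusted p = 0.00505, edgeR adjusted p = 0.854). Filip1l (chromosome 16, 57353093 to 57573126, plus strand) had 102, 158 and 514 scaled CPM in CIH and 773, 1152 and 753 in Normoxia, again without overlap (log2 fold change -1.39, SE 0.48). Kcnab1 (chromosome 3, 65109384 to 65378223, plus strand) had 102, 39.4 and 353 scaled CPM in CIH and 580.0, 576 and 894 in Normoxia (log2 fold change -1.59, SE 0.60).

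Carmn also did not overlap, at 357, 591 and 529 scaled CPM in CIH and 773, 832 and 941 in Normoxia (log2 fold change -0.76, SE 0.37), while Pde3a did, at 561, 433 and 698 in CIH and 515.5, 896 and 2258 in Normoxia (-1.10, SE 0.48). The edgeR adjusted p was 0.854 for each of these 5 genes. An alternative left out all mural nuclei with at least 2 UMIs of microglial, astrocyte and precursor markers, or more than 3 times the median UMIs. In place of the 221 it kept 11, 11 and 130 nuclei in CIH and 8, 11 and 17 in Normoxia. Of 147 genes tested there, 3 passed by edgeR, all lower in CIH. They were Ctnna3 (edgeR adjusted p = 0.0128), Fgf14 (0.0271) and Filip1l (0.0271). Beside the values of the 5 genes stand the shares of contractile nuclei in the 221, whose means were 58.3 ± 7.91% in CIH and 66.5 ± 18.8% in Normoxia. The part of these shares in the values was not tested. Among the higher genes, Lsamp, a cell adhesion protein gene, had 3161, 4414 and 3439 scaled CPM in CIH and 1933, 1920 and 2070 in Normoxia (0.89, SE 0.35), Grm3 had 1020, 1419 and 2204 in CIH and 451, 896 and 988 in Normoxia, and Ano4, of the anoctamin family, 561, 709 and 1135 in CIH and 322, 320.0 and 611 in Normoxia. Of these 3 only Ano4 overlapped, and each had an edgeR adjusted p of 0.854.

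The gene lists were then read against all genes tested, whose median log2 fold change was -0.05 with all members and 0.01 without the astrocyte-marker members; 0 genes of any list were called in either fit. Genes of the definition were left out of these counts and sums. Of 18 pericyte genes 5 belonged to the definition; of the other 13, 7 were tested, 5 of them with a fold change above 0 and 2 below, with a median of 0.37. Without the astrocyte-marker members 3 were above, 4 below and the median was -0.09. The summed level of the 13 stood at 6615 to 8729.6 CPM in CIH, against 3092 to 8295 CPM in Normoxia with all members. In the 221 nuclei it stood at 11223 to 11977 CPM in CIH, against 9035 to 12084 CPM in Normoxia, so the groups overlapped both ways. Vtn had 71, 63 and 232 UMIs in CIH and 26, 32 and 27 in Normoxia (log2 fold change 0.78, SE 0.49, edgeR adjusted p = 0.978).

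Of 19 contractile genes besides Myh11, 5 were tested, 1 above 0 and 4 below, with a median of -0.35, and the 2 tested without the astrocyte-marker members were both below 0 with a median of -0.84. Their summed level was 2331 to 4365 CPM in CIH, against 2299.8 to 6817 CPM in Normoxia, and in the 221 nuclei 3449 to 5595 CPM in CIH, against 4981 to 8439 CPM in Normoxia, overlapping both ways. Tpm1, a tropomyosin gene, had 8, 4 and 103 UMIs in CIH and 8, 12 and 17 in Normoxia (-0.62, SE 0.54). Vcl (vinculin) stood at -0.35 (SE 0.40), Cald1 (caldesmon) at 0.20 (SE 0.51) and Kcnab1 at -1.15 (SE 0.66), all with an edgeR adjusted p of 0.978. The defining contractile genes were too low to be tested: Acta2 had 1, 5 and 33 UMIs in CIH and 3, 1 and 13 in Normoxia, and Myl9 4, 4 and 33 in CIH and 1, 6 and 9 in Normoxia.

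Of 32 signalling genes besides Pdgfrb and Notch3, 4 were tested, 2 above 0 and 2 below with a median of 0.01, and P2rx1 had no UMI. Their summed level was 4109 to 6446 CPM in CIH, against 2802 to 9469 CPM in Normoxia. Pdgfrb, a gene of the definition, had 38, 50 and 316 UMIs in CIH and 30, 24 and 27 in Normoxia. Pde3a stood at -0.97 (SE 0.66) and Gucy1b1, a subunit of the nitric oxide receptor, at 0.39 (SE 0.45), both with an edgeR adjusted p of 0.978. Of 28 channels and transporters outside the definition 12 were tested, 9 above 0 and 3 below with a median of 0.26. Besides Slc12a2 these included Itpr2, a calcium release channel of internal stores, with 20, 30 and 189 UMIs in CIH and 11, 13 and 13 in Normoxia (0.80 with and 0.80 without the astrocyte-marker members), Atp2a2, the calcium pump that refills the stores (-0.54, SE 0.40), and Cacna2d1, a calcium channel subunit (0.82, SE 0.62); the adjusted p was 0.978 for each in edgeR.

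Of 28 basement membrane and matrix genes 7 were tested, 4 above 0 and 3 below with a median of 0.19. Lama2, a laminin chain, stood at 0.40 (SE 0.42), the collagen receptor subunit gene Itga1 at 0.49 (SE 0.54) and Sparcl1 at -0.35 (SE 0.44), with 60.4% of the Sparcl1 UMIs in astrocyte-marker members. Of 32 regulators 10 were tested, 6 above 0 and 4 below with a median of 0.14. Meis2 (-0.90, SE 0.50) had 90.7% of its UMIs in the astrocyte-marker members, while Wwtr1 (TAZ) and its partner Tead1 stood at 0.81 (SE 0.55) and -0.61 (SE 0.45). The edgeR adjusted p was 0.978 for all 6.

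Genes tied to the exposure were mostly below the limit of the counts. Of 37 genes of the hypoxia response, 32 had a UMI in mural nuclei and only Epas1, which encodes the hypoxia-inducible factor HIF-2 alpha, could be tested; Hk2, Egln3, Adm, Car12 and Lox had none. Epas1 had 16, 19 and 101 UMIs in CIH and 8, 9 and 4 in Normoxia, or 404 ± 89.8 scaled CPM in CIH and 188 ± 47.2 in Normoxia, without overlap (log2 fold change 1.03, SE 0.43, edgeR adjusted p = 0.893). Without the astrocyte-marker members it had 12, 13 and 83 UMIs in CIH and 5, 8 and 4 in Normoxia, and the log2 fold change was 0.41 (SE 0.60). The summed hypoxia list stood at 2100 to 2420 CPM in CIH, against 1836 to 2259 CPM in Normoxia, and at 1496 to 2575 CPM in CIH, against 1707 to 2580 CPM in Normoxia, without the astrocyte-marker members, overlapping both ways. Vegfa, the classical target of hypoxia-inducible factors, had 0, 0 and 4 UMIs in CIH and 0, 0 and 0 in Normoxia in the 221 nuclei, and averaged 358 CPM in the astrocyte-marker members.

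Of 24 genes of the glucocorticoid response, which a stressful exposure can engage, 3 were tested: Klf9 (0.24, SE 0.53), the mineralocorticoid receptor gene Nr3c2 (-0.06, SE 0.39) and the metallothionein gene Mt1 (0.07, SE 0.48), with edgeR adjusted p-values of 0.978, 0.991 and 0.991. None of these 3 had enough counts in the 221 nuclei. Of 29 inflammation and stress genes 21 had a UMI and 0 could be tested, with Il6, Ccl2, Cxcl1, Cxcl10, Socs3, Lcn2, Hspa1b and Atf3 at 0; their summed level was 590 to 838 CPM in CIH, against 492 to 696 CPM in Normoxia.

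Of 13 mitochondrially encoded genes 8 were tested and all 8 lay above 0, with a median of 0.54, and without the astrocyte-marker members 5 of 7 lay above 0 with a median of 0.18. Their summed level overlapped, at 5953 to 8883 CPM in CIH, against 3431 to 6745 CPM in Normoxia, and in the 221 nuclei at 7177 to 13118 CPM in CIH, against 5499.7 to 10598 CPM in Normoxia. mt-Co3 had 59, 60 and 500 UMIs in CIH and 63, 22 and 27 in Normoxia (0.65, SE 0.43), and mt-Co1, mt-Nd4 and mt-Nd1 stood at 0.62, 0.65 and 0.56, all with an edgeR adjusted p of 0.978. The median mitochondrial share per mural nucleus was 0.396, 0.562 and 0.538% in CIH and 0.383, 0.317 and 0.271% in Normoxia, with no overlap. Over all kept nuclei the medians were 0.0919, 0.0955 and 0.366% in CIH and 0.0788, 0.0624 and 0.0915% in Normoxia, again with no overlap. In endothelial nuclei mt-Co3, mt-Co1, mt-Nd4 and mt-Nd1 had log2 fold changes of 0.48, 0.56, 0.21 and 0.27, so the direction was not particular to mural nuclei. In the 221 nuclei Malat1, a nuclear RNA, had 133671, 151049 and 78908 scaled CPM in CIH and 180433, 195701 and 169141 in Normoxia, also with no overlap, and was lowest in CIH 3 (log2 fold change -0.59, edgeR adjusted p = 0.854). The part of these RNAs in the other values was not tested.

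The last comparison asked whether the CIH effect in mural nuclei differed from that in endothelial nuclei of the same libraries, of which there were 70, 57 and 475 in CIH and 36, 30 and 103 in Normoxia. The difference in log2 CPM between the 2 classes was tested across libraries with limma. Of 606 genes 0 (0%) had an adjusted p under 0.05 and 28 (4.62%) an unadjusted one. Without the astrocyte-marker members, 1 of 200 (0.5%) passed and 20 (10%) had an unadjusted p under 0.05.

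The gene that passed was Morrbid (chromosome 2, 128178319 to 128502765, minus strand), a long noncoding RNA known from myeloid cells of mice. In the 221 nuclei it had 9, 30 and 281 UMIs in CIH and 7, 14 and 14 in Normoxia, and in endothelial nuclei 0, 0 and 5 UMIs in CIH and 1, 3 and 5 in Normoxia. The mural levels were 963 ± 457 CPM in CIH, against 650 ± 238 CPM in Normoxia (SD, n = 3 each) and overlapped, so the difference rested on few endothelial molecules. The effect was higher in mural than in endothelial nuclei by 2.99 on the log2 scale (SE 0.53, limma adjusted p = 0.0497), and with all members by 3.42 (SE 0.57, limma adjusted p = 0.171). In the 221 nuclei 0 genes passed when any 1 library was also left out, with a replicate block or with a prior count of 3.

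With all members, Grm3 came next among the higher differences outside the definition, at 2.54 (SE 0.77). The lower difference of smallest p was that of Phka1, at -2.02 (SE 0.62). After it came Pde3a at -1.85 (SE 0.58), Kcnab1 at -2.70 (SE 0.85), Fat3 at -2.15 (SE 0.69) and Pid1 at -2.65 (SE 0.87). Each had a limma adjusted p of 0.905. In endothelial nuclei these genes were also low, at no more than 64 UMIs of Grm3, 37 of Kcnab1 and 16 of Pde3a in any library. The same limit was 54 UMIs for Phka1, 55 for Fat3 and 38 for Pid1.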

How the data were processed

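The authors deposited raw UMI counts per gene and nucleus, over 32285 genes. Cell Ranger is given as 6.1.2 per the file headers and as 3.1.0 per the submitters' processing notes; the notes also list Seurat 4.0 and mm10. Whether intronic reads were counted is not given in the sources used here. Of 43836 barcodes 40139 passed the filters. No doublet caller was run; the limits on other cell types' genes removed part of the doublets, and an alternative left out mural nuclei with at least 2 UMIs over microglial, astrocyte and precursor markers or more than 3 times the median UMIs. Counts were summed per library and class. Endothelial and fibroblast nuclei were taken by their own marker genes with at most 2 mural UMIs, astrocyte nuclei by at least 20 astrocyte-marker UMIs and oligodendrocyte nuclei by at least 3 UMIs of Mog and Mag.

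Sums were tested with edgeR 4.0.16 in R 4.3.3 (TMM scaling; low counts removed by filterByExpr; quasi-likelihood test; adjustment by Benjamini-Hochberg over all genes tested at 0.05) and with DESeq2 1.42.0. Scaled CPM uses the effective library size of edgeR. The class difference used limma 3.58.1 on log2 CPM with a prior count of 1. Single values were tested by exact two-sided permutation over 20 assignments in Python 3.11.15 with numpy 2.4.6, pandas 2.3.3 and scipy 1.17.1. The procedures were tested on data simulated from the sums of all members, with 200 genes changed. There edgeR recovered 17 of 84 changes of 2-fold and 75 of 81 of 4-fold. The class difference by limma recovered 4 of 59 and 35 of 61. Most changes of 2-fold were thus missed in the simulation, so the counts of 0 called genes do not exclude changes of that size. Positions are from GENCODE M21 (32158 genes matched). Genes were named by rule: the 10 higher and 10 lower of smallest p, predicted genes and genes of the definition left out, up to 4 genes of each list of smallest p, and the 20 of highest mural ratio; oligodendrocyte and astrocyte markers are given as sums, and 2 genes that the rule names are not reported here. The members, lists and tests were chosen with earlier results of these data known.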

Additional observations from a re-analysis of the deposited data

How the results depend on the processing

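The mural share stayed higher in CIH under every alternative run, at differences of 0.26 to 0.75 percentage points, and over the left-out libraries at 0.117 to 0.762. The smallest of the first range, 0.26, came with nuclei of 1000 genes or more and mitochondrial UMIs of 1% or less. The contractile share difference lay between -18.5 and 0.135 points over the left-out libraries and kept its sign elsewhere. The difference in median UMIs per nucleus, -90.5, was 63 with at least 5 mural UMIs, 224 with the doublet stand-in left out and 176 without astrocyte-marker members, and lay between -408 and 267 over the left-out libraries. The cause was not tested.

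The count of called genes, 0, lay between 0 and 2 over the left-out libraries. It was 2 without Normoxia 3 (Cadps and Aqp4), 3 with the doublet stand-in left out (Ctnna3, Fgf14 and Filip1l, of 147 genes tested) and 2 with no low-count filter (Tnc and 6330411D24Rik), all lower in CIH by edgeR. Leaving out a library besides the astrocyte-marker members gave 0 to 1, the 1 being Kcnd2, higher in CIH, without Normoxia 1. The class difference had 0 calls in every alternative but the one without astrocyte-marker members, where it had 1.

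Replicate numbers are shared by the groups, but the libraries with the same number did not all deviate together (correlations of 0.244, 0.0589 and 0.475), so the numbers are not taken as pairs. A replicate block gave 0 calls with all members (smallest edgeR adjusted p 0.298) and 0 for the class difference, and 2 without astrocyte-marker members, Ctnna3 and Filip1l, lower in CIH (edgeR adjusted p = 0.0227 each). CIH 1 and CIH 3 correlated best with their own number in Normoxia, and CIH 2 did not.

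Of 628 values for 44 named genes, 607 kept their direction and side of the threshold, 1 passed the threshold (Ctnna3 with the doublet stand-in left out) and 20 turned direction. Over the left-out libraries Tpm1 ran from -1.20 to 0.0080, Cald1 from -0.11 to 0.91, Pde3a from -1.48 to 0.54, Gucy1b1 from -0.0063 to 0.89, Sparcl1 from -0.51 to 0.045, Klf9 from -0.045 to 0.81, Nr3c2 from -0.16 to 0.073 and Mt1 from -0.23 to 0.81. With the doublet stand-in left out Cald1 was -0.24, Gucy1b1 -0.27 and Itga1 -0.10. Cald1 was -0.090 without astrocyte-marker members, Sparcl1 0.056 with the stricter filter on genes, Nr3c2 0.19 with no low-count filter and Mt1 -0.011 with limma-voom quality weights. Leaving out astrocyte-marker members or shared barcodes was chosen after seeing the data.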
